A study of Mus musculus with 12 samples.

Results

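Transcripts of 9 genes that astrocytes use for transport, coupling and metabolism were followed by bulk RNA-sequencing in 12 mouse brains taken at 14 d post-stroke. The labels give the tissue as brain, and the study speaks of it both as whole brains and as hemispheres, so the share of uninjured tissue behind each value is not known. The genes were taken by symbol from the deposited count table, where each matched 1 of the 49315 listed genes: *Slc1a2*, *Slc1a3*, *Aqp4*, *Gja1*, *Gjb6*, *Glul*, *Aldoc*, *Fgfr3* and *Aldh1l1*. All 9 were among the 20290 genes with enough counts to be tested. The choice of genes was made with earlier results of these data known. Recipients were irradiated, head-shielded CD45.1 mice with intact *Tet2*, 8 to 12 weeks old, and 90% of the marrow given to every mouse came from CD45.1 donors. The remaining 10% came from CD45.2 donors that were either *Tet2*-KO or their WT littermates, with 6 mice in each group. Between 8 and 10 weeks after transplantation the middle cerebral artery was occluded for 30 min. Astrocytes therefore carried intact *Tet2* in both groups, and the knockout was limited to a share of the blood-forming cells. For the *Tet2*-KO samples the label on treatment speaks of control cells, whereas title and genotype, which set the group here, say *Tet2*-KO.

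Astrocytes clear glutamate from synapses through sodium-coupled transporters and turn it into glutamine, which neurons take back to make transmitter. Their end-feet wrap blood vessels and carry water channels, and gap junctions built from connexins join neighbouring astrocytes into a network through which ions and metabolites pass. After ischemia, astrocytes around the lesion become reactive, enlarge and make more intermediate filament, and the transport and coupling genes are commonly read beside the filament gene *Gfap* for that reason. In whole tissue, fewer astrocytes and less RNA per astrocyte cannot be told apart.

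Total counts lay between 12000261 and 15340787 per library with WT marrow and between 12625047 and 21049763 with *Tet2*-KO marrow, and the 9 genes held between 429 counts (*Gjb6*) and 94535 counts (*Slc1a2*) in a single library. *Tet2* itself was at 132 ± 7.60 CPM (SD, n = 6) with WT marrow and 131 ± 7.79 CPM (SD, n = 6) with *Tet2*-KO marrow, which does not check the labels, since recipients and most donor cells kept the gene. WT replicate 2 stood apart across all genes, with a chi-square per degree of freedom of 11.6 to 17.6 against the other WT libraries, which differed from each other by 1.91 to 4.14. *Tet2*-KO replicate 5 differed by 14.2 to 24.5 from replicates 1, 2, 3 and 6 of its group and by 5.91 from replicate 4. *Tet2*-KO replicate 4 in turn differed by 9.42 to 21.1 from replicates 1, 2, 3 and 6. *Tet2*-KO replicate 6 differed by 7.32 to 16.9 from the rest of its group. Mitochondrial genes took 4.74% of its counts, against 2.87% to 3.59% in all other libraries. It was left out only in the fits that left out each library in turn. Results are also given without WT replicate 2 and *Tet2*-KO replicate 5, called below the libraries that stand apart, and for the 9 genes without *Tet2*-KO replicate 4 as well. Both choices were made after seeing the data. Neuron, oligodendrocyte and microglia markers were all detected, with no marker of any list at 0 in every library.

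None of the 9 genes passed an adjusted p of 0.05 in edgeR's quasi-likelihood test, where 0.0246% of all genes tested did so in either direction. The direction was mixed: 5 genes were higher with *Tet2*-KO marrow and 4 lower, and the median log2 fold change of the 9 was 0.019 beside 0.010 over all genes tested. At an unadjusted p below 0.05, only *Slc1a2* was counted (higher), where 23.1% of all genes tested were. Other tools gave the same 1 of 9, where 13.2% of all genes tested were at that p in DESeq2 and 26.2% in limma-voom. The adjusted p of *Slc1a2* was 0.0906 from DESeq2 and 0.0621 from limma-voom. The groups overlapped for every one of the 9 genes, where 1.09% of all genes tested had groups that did not overlap (0.453% with *Tet2*-KO marrow above and 0.641% below). The 95% interval of the fold change stayed within a factor of 2 in either direction for all 9. The call of *Slc1a2* at an unadjusted p below 0.05 was lost with the replicate block (edgeR unadjusted p = 0.0996, adjusted p = 0.315). It was also lost in 10 of the 12 fits that left out 1 library, the exceptions being WT replicate 5 and *Tet2*-KO replicate 5.

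The count also depended on which libraries entered. With both libraries that stand apart left out, *Slc1a2* was again the only 1 of the 9 at an unadjusted p below 0.05, where 22.9% of all genes tested were. None of the 9 passed the adjusted threshold, where 7.59% of all genes tested did. These shares also apply to the lists and single genes given below for that fit. With *Tet2*-KO replicate 4 left out as well, 3 of the 9 passed an adjusted p of 0.05 in edgeR, where 19.4% of all genes tested did. These were *Slc1a2*, higher (log2 fold change 0.14, edgeR adjusted p = 0.0068), and *Gja1* and *Gjb6*, both lower (-0.26 each, edgeR adjusted p = 0.0042 and 0.030). *Aqp4* was at -0.46 in that fit (edgeR adjusted p = 0.120). That fit set 5 WT against 4 *Tet2*-KO libraries, and the libraries left out were picked for their distance from their groups.

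**Figure D1:**
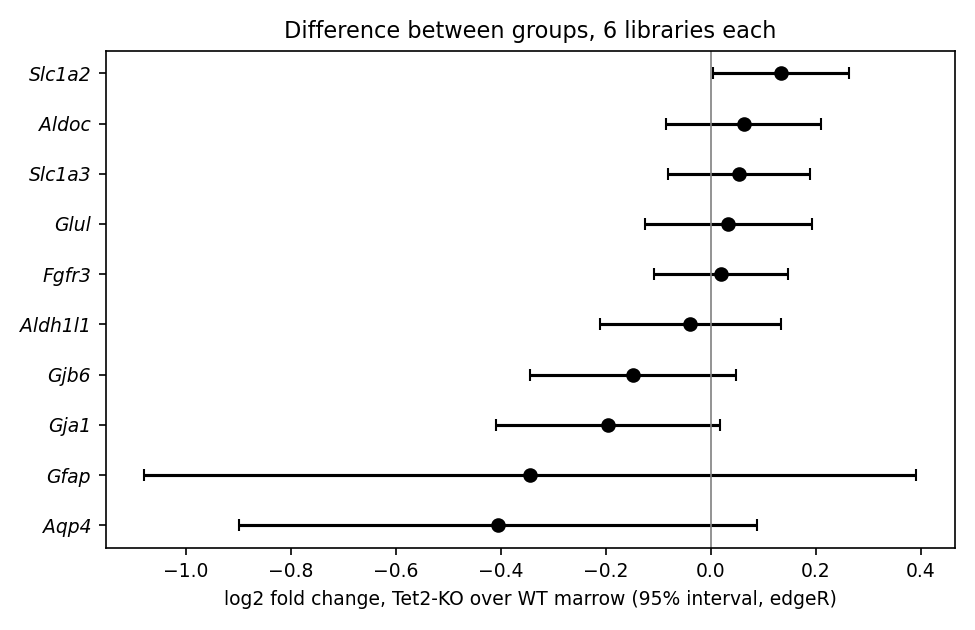
Fitted log2 fold change (x axis, *Tet2*-KO over WT marrow, 6 libraries each) of the 9 genes and of *Gfap*, with the 95% interval from edgeR as the bar. The interval of *Slc1a2* begins at 0.0050, just above 0, and those of the other genes include 0, with *Aqp4* (-0.90 to 0.089) and *Gfap* (-1.08 to 0.39) the widest.

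Levels were compared between genes as CPM per kb of merged exon, averaged over all 12 libraries. *Glul* was highest at 403 ± 35.8 (SD, n = 12), followed by *Slc1a2* at 324 ± 22.2 and *Aldoc* at 129 ± 11.1. *Aqp4* at 47.5 ± 14.8 and *Slc1a3* at 45.6 ± 3.50 came next, then *Gja1* at 19.0 ± 2.81, *Gjb6* at 15.4 ± 2.02, *Fgfr3* at 13.2 ± 0.951 and *Aldh1l1* at 11.7 ± 1.21. The top 3 did not overlap with the gene below them in any library. *Aqp4* and *Slc1a3* were not separated, *Aqp4* being above in 8 of 12 libraries, whereas *Gja1* was above *Gjb6* in 12 of 12 although their ranges overlapped. *Gjb6* was above *Fgfr3*, and *Fgfr3* above *Aldh1l1*, in 11 of 12 libraries each, again with overlapping ranges.

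**Figure D2:**
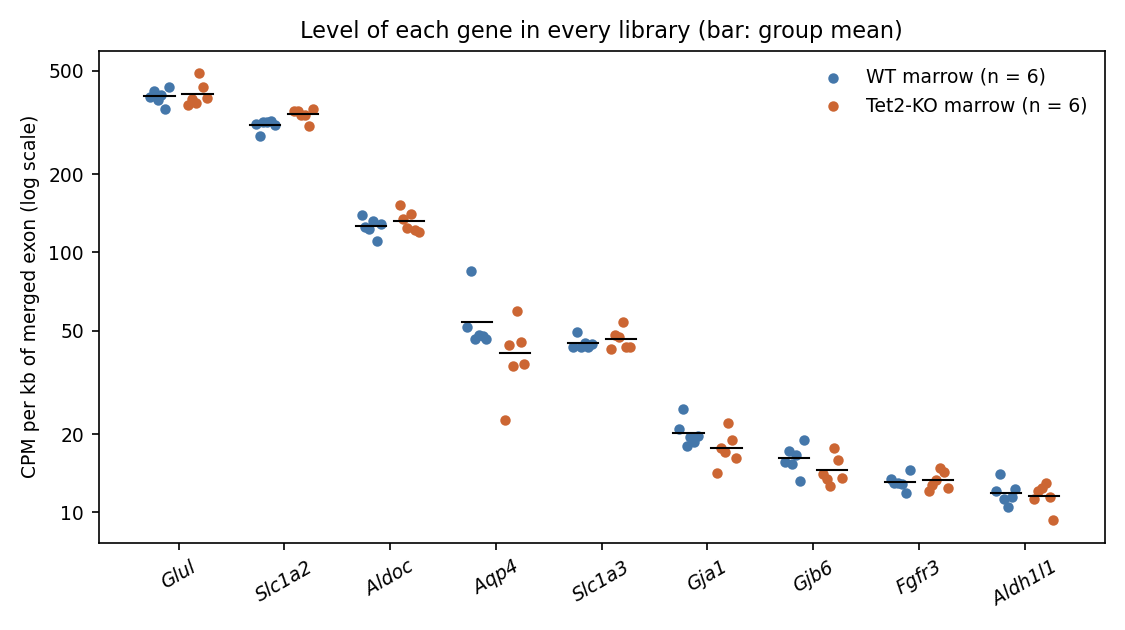
Level of each gene in every library, as CPM per kb of merged exon on a log axis, with WT marrow in blue, *Tet2*-KO marrow in orange and a bar at each group's mean (n = 6). The order from *Glul* to *Aldh1l1* spans 403 to 11.7 CPM per kb, and the spread of *Aqp4* is far wider than that of its neighbours.

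The genes differed in how much they varied between mice. Over all 12 libraries the coefficient of variation was 6.83% for *Slc1a2*, 7.20% for *Fgfr3*, 7.69% for *Slc1a3*, 8.60% for *Aldoc* and 8.88% for *Glul*. It was 10.3% for *Aldh1l1*, 13.1% for *Gjb6*, 14.8% for *Gja1* and 31.1% for *Aqp4*, and *Gfap* reached 43.0%. The highest library exceeded the lowest by 3.74 times for *Aqp4*, against 1.26 times for *Fgfr3*.

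The glutamate transporters come first. *Slc1a2* (ENSMUSG00000005089, chr2:102658659-102790784, plus strand, GRCm38) encodes the main glutamate transporter of forebrain astrocytes. It had a lowest, median and highest value of 3686, 4135 and 4192 CPM with WT marrow, and of 4016, 4520 and 4672 CPM with *Tet2*-KO marrow. The lowest WT library was replicate 2 and the lowest *Tet2*-KO library replicate 5, and the other five *Tet2*-KO libraries all lay above every WT library. Means were 4063 ± 192 and 4459 ± 235 CPM (SD, n = 6 each), a fold of 1.10 (95% interval 1.00 to 1.20). The log2 fold change was 0.13 (SE 0.061) with an edgeR unadjusted p of 0.0427 and an adjusted p of 0.202. It lay between 0.11 and 0.17 under all 20 alternatives, and without WT replicate 2 and *Tet2*-KO replicate 5 it was 0.14 (edgeR adjusted p = 0.0801).

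Neuron markers moved with this gene. All 12 neuron markers were higher with *Tet2*-KO marrow, 11 at an unadjusted p below 0.05 (10.8% of all genes tested were higher at that p) and none past the adjusted threshold. Without the libraries that stand apart, 10 of 12 were higher at an unadjusted p below 0.05 and 6 passed the adjusted threshold, where 7.59% of all genes tested did in either direction. Without *Tet2*-KO replicate 1 or 3 the count of neuron markers at an unadjusted p below 0.05 was 7. Their summed level ranged from 4184 to 5771 CPM with WT marrow and from 5394 to 7125 CPM with *Tet2*-KO marrow. As deviations from the group means, *Slc1a2* followed the neuron gene *Snap25* over the 12 libraries with r = 0.79 and rho = 0.75 (permutation test within groups, BH-adjusted p = 0.0426 and 0.0452 over 55 pairs). Without the pair of libraries farthest from their group mean of *Slc1a2*, r was 0.67. The part of neuronal RNA in the *Slc1a2* difference was not tested.

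*Slc1a3* (ENSMUSG00000005360, chr15:8634124-8710764, minus strand) encodes the second glial glutamate transporter, GLAST. Its values were 369.6, 374 and 419.9 CPM (lowest, median, highest) with WT marrow and 363, 387 and 463 CPM with *Tet2*-KO marrow. WT replicate 2 was high in its group, *Tet2*-KO replicate 4 was the highest of all, and the groups overlapped. This amounted to a log2 fold change of 0.054 (SE 0.063, edgeR adjusted p = 0.648). As a ratio of counts within each library, which does not depend on scaling, the log2 ratio of *Slc1a2* to *Slc1a3* was 3.41 ± 0.139 with WT and 3.49 ± 0.150 with *Tet2*-KO marrow (SD, n = 6 each). The difference of 0.083 was within the spread (exact two-sided permutation test, p = 0.379, BH-adjusted p = 0.505 over 4 ratios, smallest p possible 0.00216).

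Other carriers of glutamate, GABA and amino acids, not all of them particular to astrocytes, formed a list of 10 genes. Of these, 2 were higher and 8 lower with *Tet2*-KO marrow (median log2 fold change -0.058). At an unadjusted p below 0.05, 1 was higher and 3 were lower, and none passed the adjusted threshold. *Slc7a11*, the cystine-glutamate antiporter, averaged 222 ± 45.7 CPM in WT libraries and 119 ± 33.7 CPM in *Tet2*-KO libraries (SD, n = 6 each), a log2 difference of -0.90 (SE 0.193, edgeR adjusted p = 0.110). Without the libraries that stand apart it was -0.92 (edgeR adjusted p = 0.0161). *Slc6a13*, a GABA transporter, had a log2 difference of -0.52 (edgeR adjusted p = 0.124).

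*Aqp4* (ENSMUSG00000024411, chr18:15389496-15410982, minus strand) encodes the water channel of astrocyte end-feet and varied most of the 9 genes. Its lowest, median and highest values were 289, 298 and 528 CPM with WT marrow, and 141, 253 and 371 CPM with *Tet2*-KO marrow. WT replicate 2 stood far above the other five WT libraries, which lay between 289 and 321 CPM. With *Tet2*-KO marrow replicate 1 was lowest, replicate 4 highest, and 5 of 6 libraries lay below every WT library. Means were 337 ± 94.0 and 255 ± 75.7 CPM (SD, n = 6 each), a fold of 0.755 (95% interval 0.536 to 1.06), and the log2 fold change was -0.40 (SE 0.225, edgeR unadjusted p = 0.0988, adjusted p = 0.302). Single libraries set much of this size, since it moved to -0.23 when WT replicate 2 was left out, to -0.28 or -0.55 when *Tet2*-KO replicate 1 or 4 was, and to -0.26 when both libraries that stand apart were (edgeR adjusted p = 0.543).

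Against *Aldh1l1*, a gene of the astrocyte cell body, the log2 ratio of *Aqp4* counts was 2.62 ± 0.232 with WT and 2.23 ± 0.428 with *Tet2*-KO marrow (SD, n = 6 each). In 3 of 6 *Tet2*-KO libraries the ratio lay below every WT library. The difference of -0.38 was short of 0.05 (p = 0.0693 by an exact two-sided permutation test, BH-adjusted p = 0.277). Leaving out *Tet2*-KO replicate 4 gave -0.47 with a BH-adjusted exact permutation p of 0.0433, and leaving out WT replicate 2 gave -0.30 with one of 0.684, so the call rested on which library was used.

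A list of 12 genes for potassium, water and bicarbonate transport and for anchoring at the end-foot had 5 higher and 7 lower genes (median log2 fold change -0.028), with 2 higher and 1 lower at an unadjusted p below 0.05 and none past the adjusted threshold. *Kcnj10*, the inward rectifier through which astrocytes buffer potassium, averaged 327 ± 30.5 CPM in WT libraries and 283 ± 27.0 CPM in *Tet2*-KO libraries (SD, n = 6 each), a log2 difference of -0.21 (edgeR adjusted p = 0.133). *Dtna*, which belongs to the dystrophin-associated complex that anchors the water channel, had a log2 difference of 0.14 (edgeR adjusted p = 0.137). Without the libraries that stand apart *Dtna* passed, at 0.16 (edgeR adjusted p = 0.0443).

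The connexins are the coupling genes. *Gja1* (ENSMUSG00000050953, chr10:56377330-56402513, plus strand) and *Gjb6* (ENSMUSG00000040055, chr14:57123303-57133611, minus strand) encode the main gap junction proteins of astrocytes. The sequences before and across their start sites are shown as a description, and that of *Glul* because *Glul* followed *Gjb6* most closely of the 9 genes. Whether these sequences bear on the levels was not tested. The 300-base windows are from RefSeq on GRCm38.p6, from 250 bases before the start to 50 bases after it on the gene's strand, at chr10:56377050-56377349 for *Gja1*, chr14:57133562-57133861 for *Gjb6* and chr1:153899679-153899978 for *Glul*. Capitals mark the match to TGANTCA, the AP-1 motif.
Gja1: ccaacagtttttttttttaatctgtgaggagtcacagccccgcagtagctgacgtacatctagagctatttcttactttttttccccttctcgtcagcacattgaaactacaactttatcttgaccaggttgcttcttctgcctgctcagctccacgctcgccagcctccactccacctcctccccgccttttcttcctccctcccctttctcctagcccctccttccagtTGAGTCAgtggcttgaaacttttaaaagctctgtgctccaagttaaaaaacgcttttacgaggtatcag
Gjb6: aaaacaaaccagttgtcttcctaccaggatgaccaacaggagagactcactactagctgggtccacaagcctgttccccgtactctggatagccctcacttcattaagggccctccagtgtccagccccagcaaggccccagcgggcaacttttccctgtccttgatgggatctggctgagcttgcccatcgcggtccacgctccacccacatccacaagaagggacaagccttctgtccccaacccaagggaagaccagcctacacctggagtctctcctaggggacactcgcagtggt
Glul: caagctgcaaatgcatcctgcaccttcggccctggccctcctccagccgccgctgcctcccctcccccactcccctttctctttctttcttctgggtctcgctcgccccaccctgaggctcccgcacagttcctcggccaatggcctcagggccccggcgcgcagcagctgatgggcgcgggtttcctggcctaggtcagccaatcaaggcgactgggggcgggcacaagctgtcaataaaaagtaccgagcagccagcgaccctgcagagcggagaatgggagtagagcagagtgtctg
The motifs TGANTCA (AP-1) and TTCNNNGAA (STAT), the palindromic motif of NFI and the core of the TATA box were searched on both strands in the 10 windows found for 8 of the 9 genes. *Gja1* held an AP-1 match with its first base at -19 from the start, and *Gjb6* and *Glul* held none of the 4 motifs in these windows. *Slc1a3* held a STAT match at -96 and a TATA match on the opposite strand at -161, and a second *Aldoc* window held STAT matches at -124 and -83. Of all 32851 windows of this length, 7.81% held the AP-1 motif, 8.30% the STAT motif, 0.0365% the NFI motif and 13.6% the TATA motif.

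*Gja1* had a lowest, median and highest value of 185, 199.9 and 256 CPM with WT marrow, and of 145, 178 and 226 CPM with *Tet2*-KO marrow. WT replicate 2 was highest and *Tet2*-KO replicate 1 lowest, 4 of 6 *Tet2*-KO libraries lay below every WT library, and *Tet2*-KO replicate 4 lay above all but WT replicate 2. The log2 fold change was -0.20 (SE 0.0998, edgeR unadjusted p = 0.0702, adjusted p = 0.255), a fold of 0.873 (95% interval 0.753 to 1.01). Leaving out WT replicate 2 gave -0.13, and leaving out *Tet2*-KO replicate 4 gave -0.27 (edgeR adjusted p = 0.506 and 0.0968).

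*Gjb6* was at 35.4, 43.0 and 50.8 CPM (lowest, median, highest) with WT marrow and at 33.9, 36.9 and 47.4 CPM with *Tet2*-KO marrow. WT replicate 5 was low in its group and *Tet2*-KO replicates 4 and 5 were high in theirs, so the groups overlapped widely. Its log2 fold change was -0.15 (SE 0.0921, edgeR adjusted p = 0.349). The log2 ratio of *Gja1* to *Gjb6* was 2.27 ± 0.191 with WT and 2.22 ± 0.147 with *Tet2*-KO marrow (SD, n = 6 each), a difference of -0.051 (exact two-sided permutation test, p = 0.604, BH-adjusted p = 0.604).

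Of 10 other connexins and pannexins, 4 were higher and 6 lower (median log2 fold change -0.038), with 2 higher and 1 lower at an unadjusted p below 0.05 and none past the adjusted threshold. *Gjb2*, a connexin of the meninges and of some astrocytes, averaged 29.7 ± 7.43 CPM in WT libraries and 19.8 ± 7.58 CPM in *Tet2*-KO libraries (SD, n = 6 each), a log2 difference of -0.59 (edgeR adjusted p = 0.172), and of -0.66 without the libraries that stand apart (edgeR adjusted p = 0.0093). *Gjd2*, the connexin of neuronal electrical synapses, and *Panx1*, a pannexin channel, had log2 differences of 0.21 and 0.16 (edgeR adjusted p = 0.172 and 0.215). With each library left out, 0 to 3 of these genes were higher at an unadjusted p below 0.05, the most without *Tet2*-KO replicate 5 and none without WT replicates 3 or 6 or *Tet2*-KO replicates 2 or 4. None was lower at that p without WT replicate 2 or *Tet2*-KO replicates 1, 3 or 6.

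Among the metabolic genes, *Glul* (ENSMUSG00000026473, chr1:153899944-153909723, plus strand) encodes glutamine synthetase, which turns glutamate and ammonia into glutamine. It was at 1184, 1329 and 1441 CPM (lowest, median, highest) with WT marrow and at 1231, 1299.8 and 1627 CPM with *Tet2*-KO marrow. The extremes were WT replicate 5 and *Tet2*-KO replicate 4, and 5 of 6 *Tet2*-KO libraries lay within the WT range. The log2 fold change was 0.033 (SE 0.075, edgeR adjusted p = 0.830), and it was -0.029 without *Tet2*-KO replicate 4.

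*Aldoc* (ENSMUSG00000017390, chr11:78322968-78327781, plus strand) encodes aldolase C, the brain form of a glycolytic enzyme. Its values were 361, 415 and 453 CPM (lowest, median, highest) with WT marrow and 389.8, 422 and 497 CPM with *Tet2*-KO marrow. *Tet2*-KO replicate 1, the lowest library for *Aqp4*, *Gja1* and *Glul* in its group, was the highest for *Aldoc*, and the groups overlapped. *Aldoc* had a log2 fold change of 0.063 (SE 0.070, edgeR adjusted p = 0.62).

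A list of 12 genes for glycolysis, glycogen and lactate had 7 higher and 5 lower genes (median log2 fold change 0.003), with 2 in each direction at an unadjusted p below 0.05 and none past the adjusted threshold. *Hk1*, the hexokinase of brain, and *Slc2a1*, the glucose transporter of the blood-brain barrier and of astrocytes, had log2 differences of 0.19 and 0.20 (edgeR adjusted p = 0.125 and 0.167). *Ppp1r3c*, which brings a phosphatase to glycogen, had one of -0.20 and *Pfkfb3*, an activator of glycolysis, one of -0.41 (edgeR adjusted p = 0.118 and 0.123). Without the libraries that stand apart *Hk1* was at 0.19 and *Pfkfb3* at -0.38 (edgeR adjusted p = 0.0453 and 0.0356). The count of higher genes at an unadjusted p below 0.05 was 4 without *Tet2*-KO replicate 5 and 1 without WT replicates 3 or 5 or *Tet2*-KO replicates 2, 3 or 4.

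*Fgfr3* (ENSMUSG00000054252, chr5:33721674-33737068, plus strand) encodes a fibroblast growth factor receptor that mature astrocytes keep. It was at 84.7, 92.8 and 105 CPM (lowest, median, highest) with WT marrow and at 86.8, 93.1 and 106 CPM with *Tet2*-KO marrow, so that the ranges nearly coincided. Between groups the log2 fold change was 0.019 (SE 0.060, edgeR adjusted p = 0.883), with a 95% interval of the fold from 0.928 to 1.11. An antisense gene, *G630022F23Rik*, overlaps 998 bases of its exons and held between 22 and 69 counts per library, 2.61% of the counts of *Fgfr3*. The strand used in counting is not given in the sources used here, so reads of this pair cannot be told apart. Of 10 other FGF receptor and antagonist genes, 3 were higher and 7 lower (median log2 fold change -0.10), with 1 lower at an unadjusted p below 0.05, *Fgfr2*, at -0.19 (edgeR adjusted p = 0.187). That count was 3 without *Tet2*-KO replicate 5 and 0 without WT replicates 2, 3 or 4 or *Tet2*-KO replicates 1, 3 or 6.

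*Aldh1l1* (ENSMUSG00000030088, chr6:90486427-90600203, plus strand) encodes a folate enzyme used as a marker of all astrocytes. Its values were 47.1, 53.0 and 63.6 CPM (lowest, median, highest) with WT marrow and 42.0, 53.1 and 58.6 CPM with *Tet2*-KO marrow. WT replicate 2 was highest, *Tet2*-KO replicate 6 lowest, and the medians were nearly equal. For *Aldh1l1* the log2 fold change was -0.039 (SE 0.081, edgeR adjusted p = 0.817), a fold of 0.973 (95% interval 0.864 to 1.10), and its sign turned without WT replicate 2 (0.015).

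**Figure D3:**
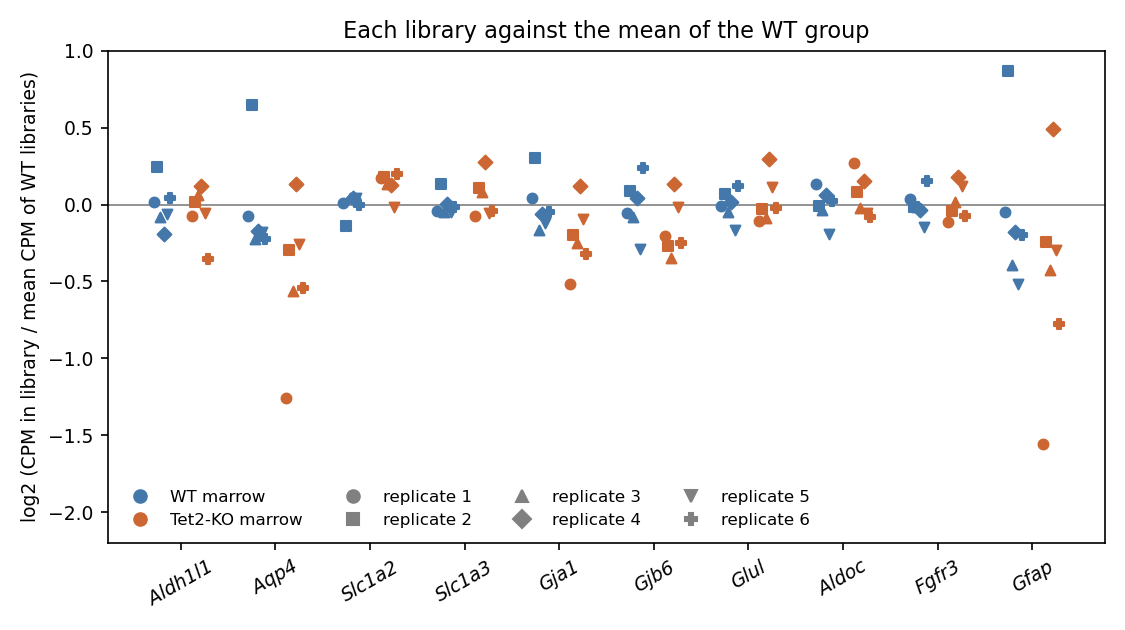
Level of each gene in every library as log2 of its CPM over the mean CPM of the WT libraries (y axis), with groups by colour and replicates by marker shape. WT replicate 2 is the highest WT library for *Aqp4* (528 CPM) and *Gfap* (1929 CPM) and the lowest for *Slc1a2* (3686 CPM), and *Tet2*-KO replicate 1 is the lowest *Tet2*-KO library for *Aqp4* (141 CPM) and *Gfap* (359 CPM).

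The same libraries stood out for several genes. Within the *Tet2*-KO group, replicate 4 was the highest library for 7 of the 9 genes and replicate 1 the lowest for 5. Among WT libraries, replicate 2 was the highest for 4 genes and replicate 5 the lowest for 5. Without *Tet2*-KO replicate 4 the count of genes at an unadjusted p below 0.05 was 3, namely *Aqp4*, *Gja1* and *Gjb6*, all lower, with edgeR adjusted p of 0.143, 0.0968 and 0.126, where 26.3% of all genes tested were at that p. *Slc1a2* was not among them.

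**Figure D4:**
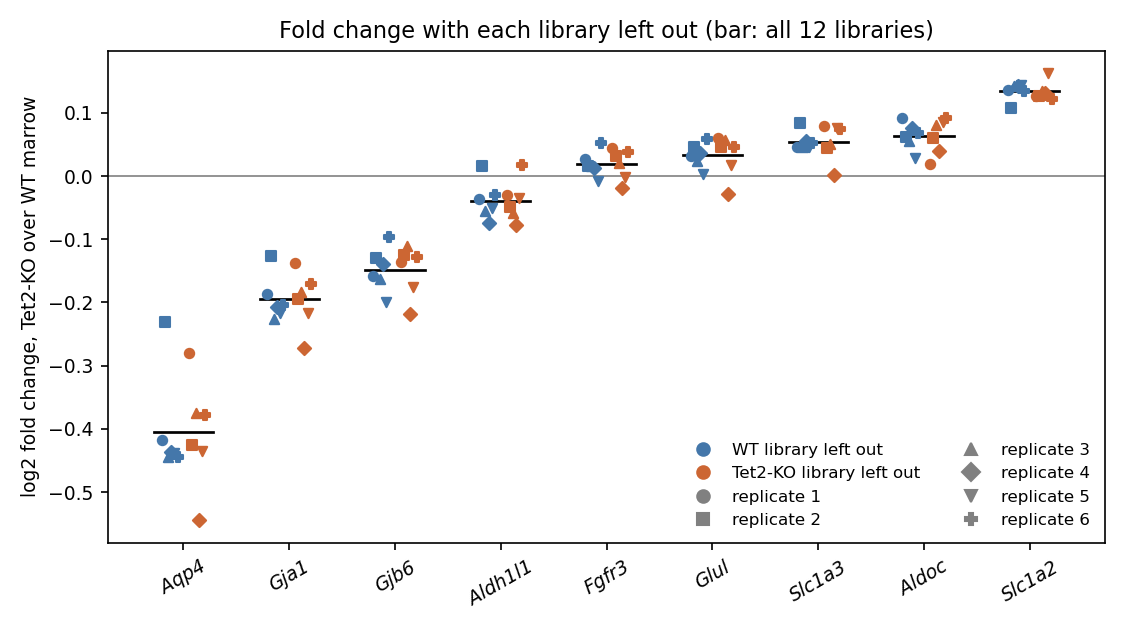
Log2 fold change of each gene (y axis, *Tet2*-KO over WT marrow) with each of the 12 libraries left out in turn, coloured by the group of the library left out, and a bar at the value from all 12. *Aqp4* ranges from -0.55 to -0.23 and *Slc1a2* from 0.11 to 0.16, and *Aldh1l1*, *Fgfr3* and *Glul* have values on both sides of 0.

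How the genes moved together between mice was read from log2 CPM as deviations from each group's mean, which leaves out the difference between groups. The points are the 12 libraries, and all genes of a library share its tissue composition, depth and scaling. Of the 36 pairs among the 9 genes, 28 correlated above 0 and 8 below (median r = 0.43), and 7 of those 8 included *Slc1a2*. After adjustment over the 55 pairs that also include *Gfap* and *Snap25*, 7 of the 36 passed 0.05 by r and 11 by rho (permutation test within groups, 100000 resamples).

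*Aqp4* and *Gja1* formed the closest pair, with r = 0.96 and rho = 0.84 (BH-adjusted permutation p = 6.9e-04 and 0.0050). The r was 0.95 within WT and 0.96 within *Tet2*-KO libraries, and 0.93 without the pair of libraries farthest from their group mean of *Aqp4*. Both also followed *Gfap*, with r = 0.97 for each (BH-adjusted permutation p = 0.0015 for *Aqp4* and 6.9e-04 for *Gja1*), and both ran against *Snap25*, with r = -0.89 and r = -0.96 (BH-adjusted permutation p = 9.9e-04 and 6.9e-04). *Slc1a3* followed *Aqp4* with r = 0.77 and rho = 0.53 (BH-adjusted permutation p = 0.032 and 0.120). It followed *Gja1* with r = 0.79 and rho = 0.64 (BH-adjusted permutation p = 0.032 and 0.098). The latter r was 0.35 without the pair of libraries farthest from their group mean of *Slc1a3*.

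*Gjb6*, *Glul* and *Fgfr3*, the genes of coupling, glutamine synthesis and growth factor reception, also followed one another. *Gjb6* and *Glul* had r = 0.94 and rho = 0.93 (BH-adjusted permutation p = 0.0015 and 0.0050). Their r was 0.91 without the pair of libraries farthest from their group mean of *Gjb6*. *Glul* and *Fgfr3* had r = 0.87 and rho = 0.84, and *Gjb6* and *Fgfr3* r = 0.83 and rho = 0.75 (BH-adjusted permutation p of r = 0.0059 and 0.018). The connexins followed each other less closely (r = 0.58, BH-adjusted permutation p = 0.123), although a difference between these correlations was not tested. These genes were not separate from *Gja1*, which followed *Glul* with r = 0.76 and rho = 0.69 (BH-adjusted permutation p = 0.0367 and 0.0591). That r was 0.59 without the pair of libraries farthest from their group mean of *Gja1*. *Gja1* also followed *Fgfr3*, with r = 0.62 and rho = 0.73 (BH-adjusted permutation p = 0.110 and 0.0471).

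Over the 12 libraries *Aldoc* correlated weakly with every other gene of the 9, between r = -0.19 with *Aqp4* and r = 0.39 with *Gjb6*. Within WT libraries r was 0.67 with *Fgfr3*, 0.65 with *Glul* and 0.60 with *Gjb6*, and between -0.13 and 0.29 with the other genes. Within *Tet2*-KO libraries the same 3 pairs had r of -0.15, 0.036 and 0.23. This difference between groups was not tested. *Slc1a2* ran against *Gja1* (r = -0.67, rho = -0.73), *Aqp4* (r = -0.60, rho = -0.46) and *Aldh1l1* (r = -0.58, rho = -0.64). By r, none of its pairs with the other eight genes passed 0.05 after adjustment (BH-adjusted permutation p = 0.0856 for *Gja1*). By rho, 4 did: those with *Fgfr3* (rho = -0.85, BH-adjusted permutation p = 0.0178), *Glul* (rho = -0.75, 0.0452), *Gjb6* (rho = -0.73, 0.0452) and *Gja1* (0.0471). *Slc1a2* and *Slc1a3* had r = -0.93 within WT and r = 0.094 within *Tet2*-KO libraries, and WT replicate 2 was at the edge of both genes in the WT group.

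**Figure D5:**
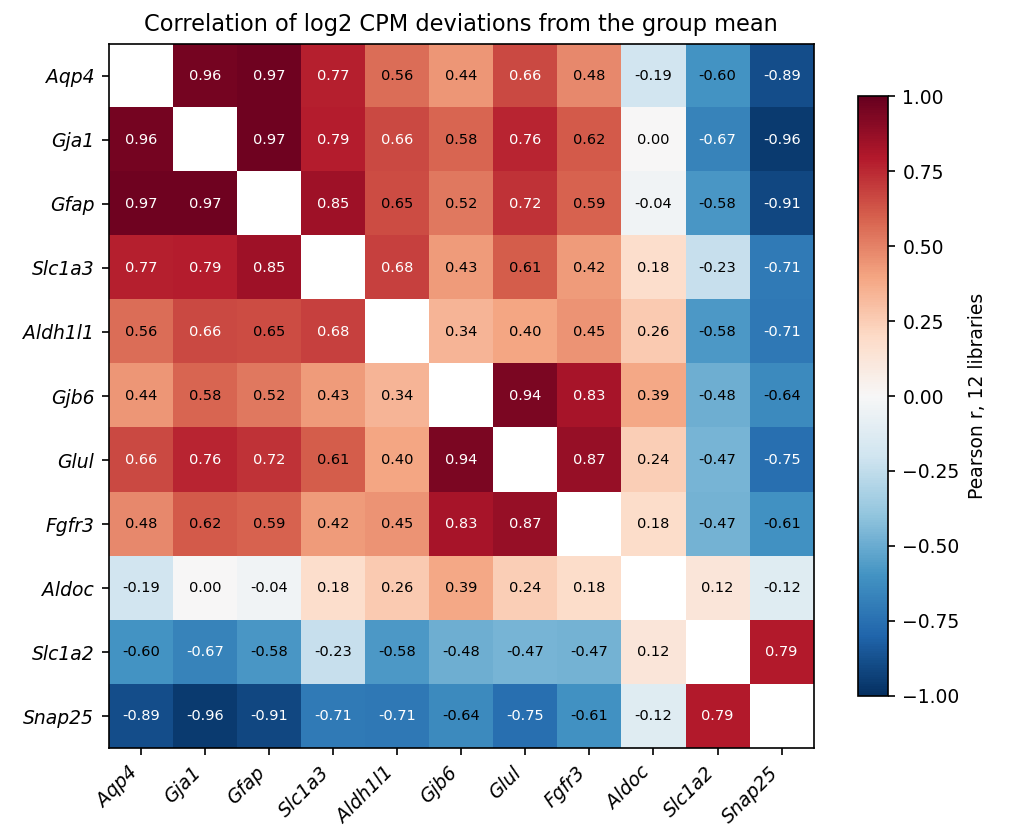
Pearson correlation over the 12 libraries of log2 CPM deviations from the group mean, for the 9 genes, *Gfap* and the neuron gene *Snap25*, in red above 0 and blue below. *Aqp4*, *Gja1* and *Gfap* form one block (0.96 to 0.97), which *Slc1a3* follows less closely (0.77 to 0.85). *Gjb6*, *Glul* and *Fgfr3* form another (0.83 to 0.94). The blocks are not separate, the closest link being *Gja1* and *Glul* (0.76), and *Glul* also follows *Gfap* (0.72). *Slc1a2* is positive only with *Aldoc* (0.12) and *Snap25* (0.79).

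Over the 9292 genes with a mean log2 CPM of at least 4, the gene most like each of the 9 was sought by the same measure, as a description with no test. *Aqp4* was most like *Acsf2* (r = 0.98), *Tmem119* (0.98) and *Serpina3n* (0.98), the second a gene of microglia and the third one of reactive astrocytes. *Gja1* was most like *Padi2* (r = 0.98), *Abl1* (0.98) and *A2m* (0.98). For *Slc1a2* the closest were *Kbtbd7* (r = 0.96), *Gnao1* (0.95) and *Tmem63c* (0.94), and for *Slc1a3* *Clu* (r = 0.93), itself an astrocyte gene, *Pigt* (0.92) and *Uhrf1bp1* (0.91). *Gjb6* and *Fgfr3* were both most like *Glul* (r = 0.94 and 0.87), and *Glul* was most like *Lrrc8a* (r = 0.95), a subunit of the volume-regulated anion channel. *Aldoc* was most like *Pcdhgb7* (r = 0.94) and *Aldh1l1* most like *Ext2* (r = 0.94). The highest of so many correlations over 12 libraries is large by selection alone.

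*Gfap*, the filament gene the study stained, was read beside these genes. It was at 740, 928 and 1929 CPM (lowest, median, highest) with WT marrow and at 359, 823 and 1487 CPM with *Tet2*-KO marrow, with WT replicate 2 highest and *Tet2*-KO replicate 1 lowest. The log2 fold change was -0.34 (SE 0.333, edgeR adjusted p = 0.578), and against *Aldh1l1* the log2 ratio was 4.22 ± 0.381 with WT and 3.88 ± 0.602 with *Tet2*-KO marrow (SD, n = 6 each; exact two-sided permutation test, p = 0.281, BH-adjusted p = 0.505). All 20 reactive astrocyte genes, *Gfap* among them, were lower with *Tet2*-KO marrow (median log2 fold change -0.90), 14 of them at an unadjusted p below 0.05, where 12.2% of all genes tested were lower at that p, and none past the adjusted threshold. Without the libraries that stand apart the count was again 14, with 4 past the adjusted threshold (*Timp1*, *Cp*, *Serping1* and *Emp1*, named after their values were seen), where 7.59% of all genes tested passed. With each library left out, the count at an unadjusted p below 0.05 ranged from 10 without WT replicate 2 to 18 without *Tet2*-KO replicate 4. None of the 20 passed the adjusted threshold in either of those fits. *Timp1*, a metalloproteinase inhibitor, and *Ptx3*, a pentraxin, had log2 differences of -0.96 and -1.31 (edgeR adjusted p = 0.116 and 0.131). Which cells the transcripts of the 20 genes came from was not tested.

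Of 20 other astrocyte identity genes, 10 were higher and 10 lower (median log2 fold change 0.014), with 3 higher and 1 lower at an unadjusted p below 0.05 and none past the adjusted threshold. *Apoe*, the lipid carrier that astrocytes and phagocytes both make, averaged 2637 ± 972 CPM in WT libraries and 1337 ± 643 CPM in *Tet2*-KO libraries (SD, n = 6 each), a log2 difference of -0.98 (edgeR adjusted p = 0.145). *Rorb*, a nuclear receptor that cortical neurons also express, and *Ttyh1*, a channel-like membrane protein, had log2 differences of 0.26 and 0.13 (edgeR adjusted p = 0.121 and 0.170), and *Rorb* passed without the libraries that stand apart (edgeR adjusted p = 0.0320). Higher genes at an unadjusted p below 0.05 numbered 1 without WT replicate 5 or *Tet2*-KO replicates 1, 2 or 3, and lower genes numbered 3 without *Tet2*-KO replicate 4.

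Markers of other cells moved with *Aqp4*, *Gja1* and *Gfap*, which were lower on average with *Tet2*-KO marrow. All 10 markers of activated phagocytes and monocytes were lower, 9 at an unadjusted p below 0.05 (median log2 fold change -1.64), with a summed level of 1136 to 2935 CPM with WT and 75.8 to 1654 CPM with *Tet2*-KO marrow. Without the libraries that stand apart 10 of 10 were lower at that p, 6 of them past the adjusted threshold, where 7.59% of all genes tested passed in either direction. Without WT replicate 2 alone, 3 of these markers were at that p and none past the threshold. *Lgals3* and *Ms4a7* led them at -1.95 and -1.62 (edgeR adjusted p = 0.132 and 0.142). Of 10 microglia markers 9 were lower, 1 at that p, *Olfml3*, with summed levels of 902 to 1592 and 433 to 1148 CPM, and with each library left out the count ranged from 0 to 3, the highest without *Tet2*-KO replicate 4 or 5. Of 10 fibroblast and mural cell markers 9 were lower, 6 at that p, led by *Dcn* and *Pdgfrb*, with summed levels of 726 to 1469 and 246 to 891 CPM.

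Endothelial markers were lower in 8 of 10 genes, 4 at an unadjusted p below 0.05, led by *Emcn* and *Cldn5*, with summed levels of 338 to 413 CPM with WT and 315 to 380 CPM with *Tet2*-KO marrow, and 2 without WT replicate 2 or *Tet2*-KO replicate 1. Oligodendrocyte and precursor markers were split, with 4 higher and 8 lower of 12 and 1 lower at that p, *Pdgfra*. Markers of ependyma and choroid plexus were lower in 10 of 10 genes, 1 at that p, *Kl*, and 5 without *Tet2*-KO replicate 4. Markers of cerebellum were higher in 8 of 9 genes tested, 3 at that p, led by *Calb1* and *Neurod1*. The remaining marker of that list, *Gabra6*, had too few counts to be tested. Whether cerebellar tissue was in the samples was not tested. Markers of striatum were higher in 8 of 10, 1 at that p, *Drd1*, and those of cortex in 10 of 10, 7 at that p, led by *Rorb* and *Mef2c*. Without *Tet2*-KO replicate 1 or 3 the counts were 0 for striatum and 4 for cortex, and without *Tet2*-KO replicate 5 that of striatum was 5. The part of tissue composition in the values of the 9 genes and of the reactive astrocyte genes was not tested.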

How the data were processed

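RNA from the brains of 12 mice was depleted of ribosomal RNA and sequenced as paired reads. Per the labels, the authors trimmed reads with Trimmomatic 0.36, aligned them with STAR 2.5.2b and counted them with featureCounts of Subread 1.5.2 on mm10, and they deposited raw counts per gene, without normalization. The strand setting is not given in the sources used here. Groups came from the sample titles and genotype entries. Symbols, coordinates and merged exon lengths came from GENCODE M21 (GRCm38), which named 49056 of the 49315 listed genes.

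From these counts, genes were kept by filterByExpr, scaled by TMM and tested by edgeR 4.0.16 in R 4.3.3 with its quasi-likelihood F test (robust fit, both groups, no covariate), with Benjamini-Hochberg adjustment over all 20290 genes tested and a threshold of 0.05. CPM are counts scaled to a common TMM-corrected library total, log2 CPM used a prior count of 2, and the SE is the log2 fold change over the square root of F. Ratios within a library were tested exactly over all assignments of the mice, and correlations by permutation within groups. Alternatives were the DESeq2 1.42.0 Wald test, limma-voom (limma 3.58.1) with quality weights, other scalings, no count filter, a replicate block and each library left out. The fits were tested on simulated data.

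The 9 genes, the 17 other lists and the tests were chosen with earlier results of these data known. Named from each list were up to 2 genes with the smallest unadjusted p below 0.05 in each direction, plus *Gfap* and *Tet2*. Some genes that this rule names are not reported here. Libraries of a group differed by more than sampling noise and counted separately. The labels do not say how the mice were housed or batched, so p-values measure the spread between these libraries.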

Additional observations from a re-analysis of the deposited data

Results flagged for a closer look

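In 5 of 26 sets of 6 libraries (each of the 9 genes and 4 ratios in each group), 1 library lay farther from the others than Dixon's limit for 6 values. Chance alone passes that limit in about 1 in 20 independent sets. These sets share their libraries and the ratios reuse genes of the other sets, so the count cannot be set against that rate. WT replicate 2 gave 4 of the 5. It held *Aqp4* at 528 CPM, with the other five WT libraries between 289 and 321, and *Slc1a3* at 419.9 CPM, with the others between 369.6 and 384. It held *Slc1a2* at 3686 CPM, below the others at 4053 to 4192, and its log2 ratio of *Slc1a2* to *Slc1a3* was 3.13, with the others between 3.42 and 3.50. The last was *Slc1a2* in *Tet2*-KO replicate 5 at 4016 CPM, with the other five between 4432 and 4672.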

How the results depend on the processing

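None of the 9 genes passed the adjusted threshold under 19 of the 20 alternatives, and 3 passed (*Slc1a2*, *Gja1* and *Gjb6*) with WT replicate 2 and *Tet2*-KO replicates 4 and 5 left out. The count of all genes past it did depend on the setting, from 5 to 921 with the DESeq2 Wald test, 1863 with limma-voom, 44 without the count filter, 1554 with both WT replicate 2 and *Tet2*-KO replicate 5 left out, 3990 with *Tet2*-KO replicate 4 left out as well (both chosen after seeing the data) and 0 with the replicate block, where 4329 genes had an unadjusted p below 0.05. With each library left out it ranged from 0 to 2257, the highest without *Tet2*-KO replicate 5. The count of the 9 genes at an unadjusted p below 0.05 was 1 in 8 of the 20 alternatives and 0 in 9, the replicate block among them. It ranged from 0 to 3 with each library left out, where 15.3% to 28.0% of all genes tested were at that p. With 3 libraries left out it was 4, where 29.4% of all genes tested were. Same-numbered libraries correlated between -0.17 and 0.23 in their deviations and 3 of 12 libraries were closest to their own number. No pairing by number was seen in these values, but so few libraries cannot decide whether the numbers pair them.

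Of 180 refitted log2 fold changes of the 9 genes, 11 turned their sign, all of them near 0. *Aldh1l1* was at 0.030 with limma-voom and 0.019 without WT replicate 2 and *Tet2*-KO replicate 5, and between -0.077 and 0.017 with each library left out. *Fgfr3* was at -0.0049 without that pair and between -0.019 and 0.053 with each library left out, and *Glul* between -0.029 and 0.060. With 3 libraries left out *Fgfr3* was at -0.063 and *Glul* at -0.057. With each library left out, the difference in the log2 ratio of *Gja1* to *Gjb6* ranged from -0.11 to 0.0011 and that of *Aqp4* to *Aldh1l1* from -0.47 to -0.23. The widest 95% interval of the fold among the 9 genes was 0.536 to 1.06 (*Aqp4*). The cause of these dependences was not tested.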
